A study of Mus musculus with 8 samples.

Results

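The genes for the matrix proteases and their TIMP inhibitors were followed in hearts of 24-week-old *Rnaseh1* knockout mice. All genes that the deposited sheet typed as protein coding and whose names began with *Mmp* or *Timp* and a number, or with *Adamts*, were taken. This gave 50 of 54508 genes, namely 22 matrix metalloproteinases (MMPs), 4 tissue inhibitors of metalloproteinases (TIMPs), 19 ADAMTS enzymes and 5 ADAMTS-like proteins. A further name match, *Mmp1a*, was typed as a polymorphic pseudogene, had no read and was not taken. RNA sequencing had been done on total heart RNA of 4 knockout mice (RNase H1-/-) and 4 wild type mice (RNase H1+/+), all C57BL/6. In the knockout, exon 2 of *Rnaseh1* is flanked by loxP sites on both alleles and removed by Cre under the muscle creatine kinase promoter (*Ckmm*-cre), which acts in heart and skeletal muscle. The study describes its controls as floxed mice without Cre, so effects of Cre and of the loss of RNase H1 cannot be told apart, and cells of the heart that do not use this promoter are expected to keep the gene.

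MMPs are zinc endopeptidases that are secreted as inactive proenzymes or anchored in the cell membrane, and they cut collagens, proteoglycans and other matrix proteins. TIMPs bind the active site of these enzymes and block it. ADAMTS proteins are secreted zinc proteases that carry thrombospondin repeats and cut proteoglycans, procollagens or von Willebrand factor, whereas ADAMTS-like proteins share the repeats but have no protease domain and bind the fibrillin microfibrils of the matrix. In the heart, fibroblasts, endothelial cells, immune cells and cardiomyocytes all contribute members of these families, and the proteins are known from scarring and dilation of the failing heart.

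An early look at sequence served to show what the genes share beside their names. Of the 22 MMP genes, 9 lie in a row on chromosome 9 between 7272514 and 7699585 (GRCm38), in the order *Mmp13*, *Mmp12*, *Mmp1b*, *Mmp3*, *Mmp10*, *Mmp8*, *Mmp27*, *Mmp20* and *Mmp7*. The RefSeq promoter table for GRCm38.p6 held a promoter (250 bases before to 50 bases after the start) for 35 of the 50 genes. All genes without one lie outside the row, among them *Mmp2*, *Mmp9*, *Mmp19* and *Adamts7*. The AP-1 motif TGANTCA, searched on both strands, was in 7.81% of all 32851 promoters and in 7 of the 38 promoters of these 35 genes. The 7 belong to 7 genes, all in the chromosome 9 row, and no promoter held for a gene outside it had a match. Only *Mmp8* and *Mmp27* of the row had no match. The ATF4 and C/EBP motif TGATGNAA, also searched on both strands and free to overlap the first, was in 3.97% of all promoters and in that of 1 of the 35 genes, *Mmp10*. Shown are 80 bases, from 100 to 21 bases before the start, for the 4 genes of the row with enough reads to be tested. The motif is in capitals, each window reads along the plus strand, on which all 4 genes lie, and that of *Mmp12* belongs to the second of its RefSeq starts, while the promoter at its first start, which lies at the annotated start of the gene, has no match. The windows are at chr9:7445722-7445801 for *Mmp3*, chr9:7272414-7272493 for *Mmp13*, chr9:7347274-7347353 for *Mmp12* and chr9:7558329-7558408 for *Mmp8*.

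Mmp3: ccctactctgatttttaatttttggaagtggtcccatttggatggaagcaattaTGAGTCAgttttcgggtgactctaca
Mmp13: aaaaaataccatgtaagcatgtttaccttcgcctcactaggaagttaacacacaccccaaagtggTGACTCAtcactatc
Mmp12: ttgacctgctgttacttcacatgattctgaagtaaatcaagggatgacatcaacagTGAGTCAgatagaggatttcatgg
Mmp8: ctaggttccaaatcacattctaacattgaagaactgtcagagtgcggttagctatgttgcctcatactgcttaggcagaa

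A match is a description of letters and no evidence of binding. Among these 4 neighbours, *Mmp3*, with the motif, rose in the knockout, *Mmp8*, without it, had reads only there, and *Mmp12* and *Mmp13*, with it, did not pass the test.

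The values are gene counts that the authors divided by a size factor per library, called normalised counts here. Between 27429878 and 30505752 read pairs were counted per knockout library and between 31810103 and 40715847 per wild type library, of which 24835342 to 27146119 and 11896021 to 16213429 pairs fell on nuclear genes, so depth on the genes studied differed with genotype. *Rnaseh1* itself had 182, 145, 166 and 166 normalised counts in knockout hearts, against 129, 144, 158 and 129 in wild type hearts. This was no call (log2 change 0.23 ± 0.12 SE, adjusted p = 0.114). Gene-level counts pool the exons and do not show whether 1 of them is removed, and why the level did not fall was not tested. Transcripts of mtDNA, whose replication depends on RNase H1, took 9.46% to 12.3% of the pairs in knockout libraries and 60.2% to 62.6% in wild type libraries, so every library lay with the others of its label. The first principal component of all tested genes held 76.2% of the variance and separated the genotypes, and the second, with 10.02%, lay within the knockout, with scores of -0.49, -0.42, 0.74 and 0.16 for knockout replicates 1 to 4 and between -0.037 and 0.059 in wild type. The labels give no batch, and what sets the knockout libraries apart was not tested. Per-library values are therefore printed for the main members, and a call that changes without 1 library is given with and without it. The cardiomyocyte markers *Myh6*, *Tnnt2* and *Ttn* were abundant in all 8 libraries.

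Of the 50 genes, 39 reached a mean of 10 normalised counts over the 8 libraries and were tested, and 1 of them, *Mmp8*, did so only through the knockout libraries. By limma-trend over all 17046 genes that passed, with Benjamini-Hochberg adjustment at 0.05, 19 of the 39 were higher in the knockout, 4 were lower and 16 were not called. *Mmp8* is 1 of the 19, and having passed only through the knockout it had to differ, so its test adds nothing. Among all genes tested, 30.7% were called higher and 28.4% lower. The count of 19 is thus 48.7% of the members against that 30.7%, and the count of 4 is 10.3% against 28.4%. With a change of at least 2-fold in addition, 13 members were higher and 3 lower, beside 11.5% and 10.8% of all genes. All 4 knockout libraries lay above all 4 wild type libraries for 17 members and below them for 3, beside 28.2% and 26.5% of all genes. *Mmp8* is counted among both the 13 and the 17. The median log2 change of the tested members was 0.48, and that of all genes was 0.017. Scaling each library to equal totals of nuclear genes moved the median of all genes up by 0.23 and gave 22 members higher and 3 lower, and scaling to equal totals with mtDNA transcripts included moved it up by 1.43 and gave 34 and 2. Higher calls were 82.6%, 88.0% and 94.4% of the members' calls under the 3 scalings and 52.0%, 69.2% and 96.3% of those of all genes. In bulk RNA, fewer cells of a type and less RNA per cell cannot be told apart.

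Calls were also counted by class, beside 30.7% of all genes tested called higher and 28.4% called lower. MMPs had 7 members higher and 1 lower of 14 tested (median log2 change 1.29), the TIMPs 3 higher and none lower of 4 (0.56), the ADAMTS enzymes 8 higher and 2 lower of 16 (0.37), and the ADAMTS-like proteins 1 higher and 1 lower of 5 (0.085). The ADAMTS-like calls, 20% in each direction, were below the shares of all genes. The 7 MMPs called higher and the MMP median include *Mmp8*, which passed the minimum only through the knockout. With so few genes in a class, no difference between classes was tested. Summed per kilobase of exon, which allows levels of different genes to be added, MMP transcripts came to 2378 ± 969.8 normalised counts per kb in knockout hearts and 1259 ± 38.1 in wild type hearts (SD, n = 4 each). The TIMP sum was 2973 ± 574 in knockout hearts and 1101 ± 99.5 in wild type hearts, that of ADAMTS enzymes 1589 ± 36.8 and 972 ± 23.1, and that of ADAMTS-like proteins 1001 ± 131 and 639 ± 42.0. In none of the 4 classes did the sums of the groups overlap. A sum can follow 1 gene. The ADAMTS-like rise was that of *Adamtsl2* (452 per kb in knockout hearts, 28.3 in wild type hearts). *Adamtsl5* (373 and 344) changed little and *Adamtsl4* (103 and 211) fell. Most of the TIMP rise was that of *Timp1* (1418 and 33.2).

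**Figure D1:**
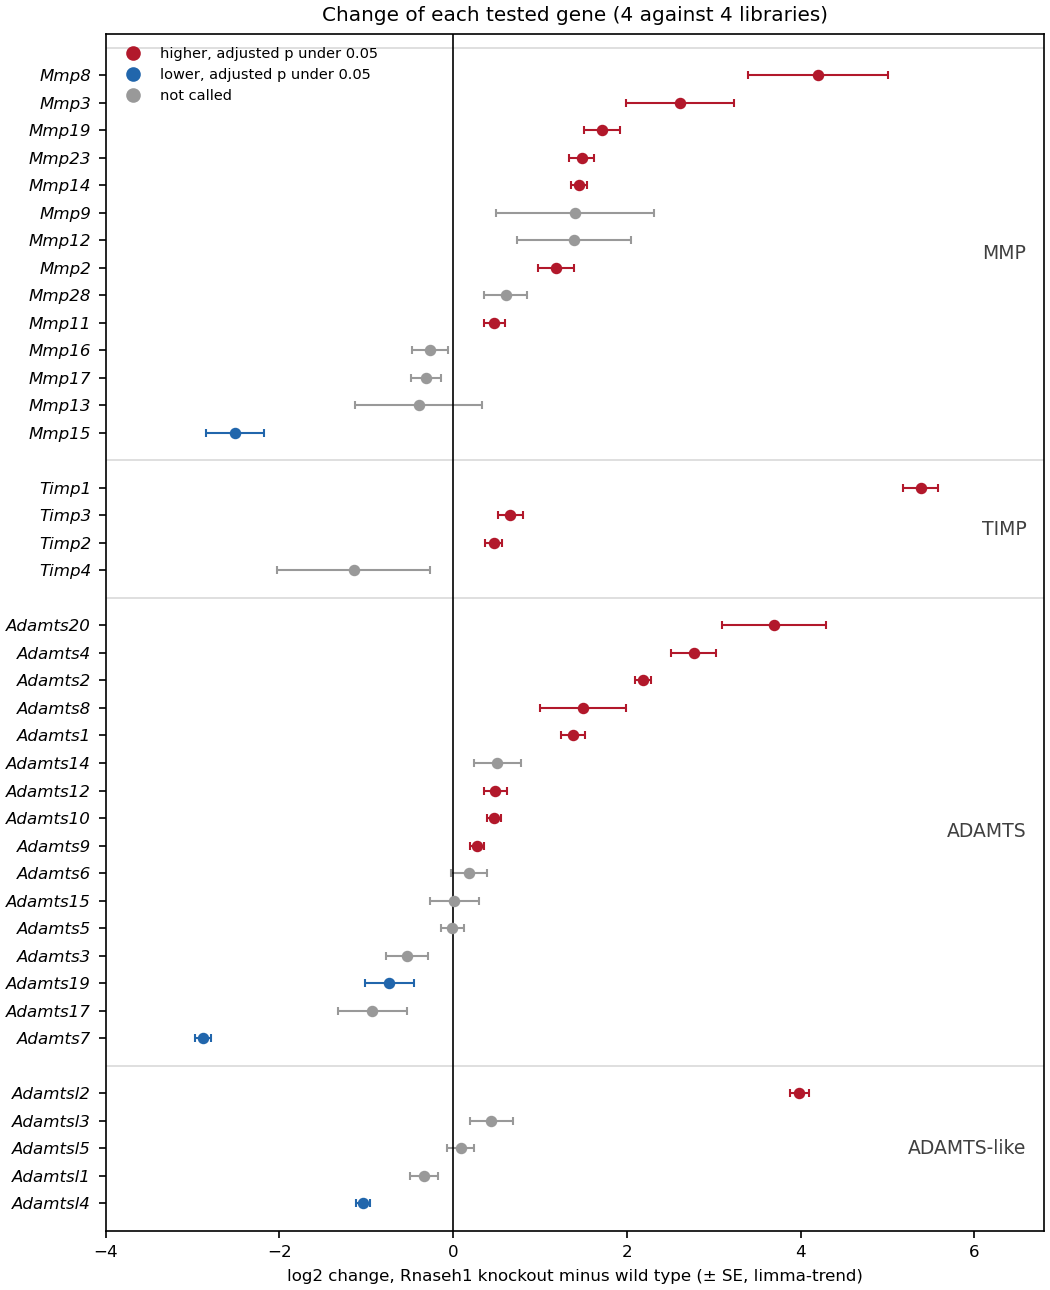
Log2 change of each of the 39 tested genes, knockout minus wild type, with its standard error from limma-trend (4 libraries per genotype). Genes are grouped by class and coloured by call: 19 lie right of 0 in red, 4 left of 0 in blue, and 16 in grey were not called.

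*Timp1*, the soluble inhibitor that many cells induce on injury and that acts poorly on membrane-anchored MMPs, had the largest fitted log2 change of the tested members, leaving aside *Mmp8*, which had no wild type read. It had 974, 1246, 1191 and 1627 normalised counts in knockout hearts, against 33.1, 33.3, 32.4 and 19.0 in wild type hearts. The lowest knockout library was far above the highest wild type library, and the means stood 42.8-fold apart (log2 change 5.38 ± 0.20 SE, adjusted p = 1.21e-08). The gene (ENSMUSG00000001131) lies on chromosome X from 20870166 to 20874735 on the plus strand inside *Syn1*, which runs on the opposite strand, and pairs had been counted by strand. *Timp3*, which binds to matrix and also blocks several ADAMTS and ADAM proteases, had 5277, 6188, 8963 and 7485 in knockout hearts, against 4098, 4663, 4703 and 3924 in wild type hearts. The groups did not overlap, the knockout libraries spread more, and the rise was modest (log2 change 0.66 ± 0.14 SE, adjusted p = 0.00245). *Timp2*, which together with MMP-14 presents the MMP-2 proenzyme for activation, had 1982, 2364, 2596 and 2556 in knockout hearts, against 1609, 1797, 1880.3 and 1563 in wild type hearts (log2 change 0.47 ± 0.095 SE, adjusted p = 0.00166). Here too each knockout library was above each wild type library. *Timp2* overlaps *Cep295nl* on the same strand. The study lists no option for counting a pair for several genes, so pairs in any shared exon may be missing from *Timp2*.

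*Timp4*, the inhibitor known for its high level in healthy heart, did not move one way. It had 64.0, 59.9, 1000.3 and 968 normalised counts in knockout hearts, against 591, 462, 679.8 and 492 in wild type hearts. Knockout replicates 1 and 2 were below every wild type library and knockout replicates 3 and 4 above every one, so the groups interleaved and the test gave no call (log2 change -1.15 ± 0.88 SE, adjusted p = 0.287). Leaving out 1 library at a time gave log2 changes between -1.81 and -0.47, with no call in any case. On the recovered reads the change was near 0 by edgeR (-0.092) and DESeq2 (-0.10), also with no call, so these libraries do not settle how *Timp4* responds. Per kilobase, the order of the inhibitors in knockout hearts was *Timp1* (1418 normalised counts per kb), *Timp3* (857), *Timp2* (609) and *Timp4* (88.7), and in wild type hearts *Timp3* (534), *Timp2* (439), *Timp4* (94.4) and *Timp1* (33.2). *Timp1* made up 47.8% ± 4.74 of the summed TIMP level in knockout hearts and 2.99% ± 0.59 in wild type hearts (SD, n = 4 each). Within each library this order held in all 4 knockout and all 4 wild type hearts. Across libraries the ranges of *Timp3* and *Timp2* overlapped in both genotypes, as did those of *Timp1* and *Timp3* in knockout hearts, and the other neighbours were apart.

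**Figure D2:**
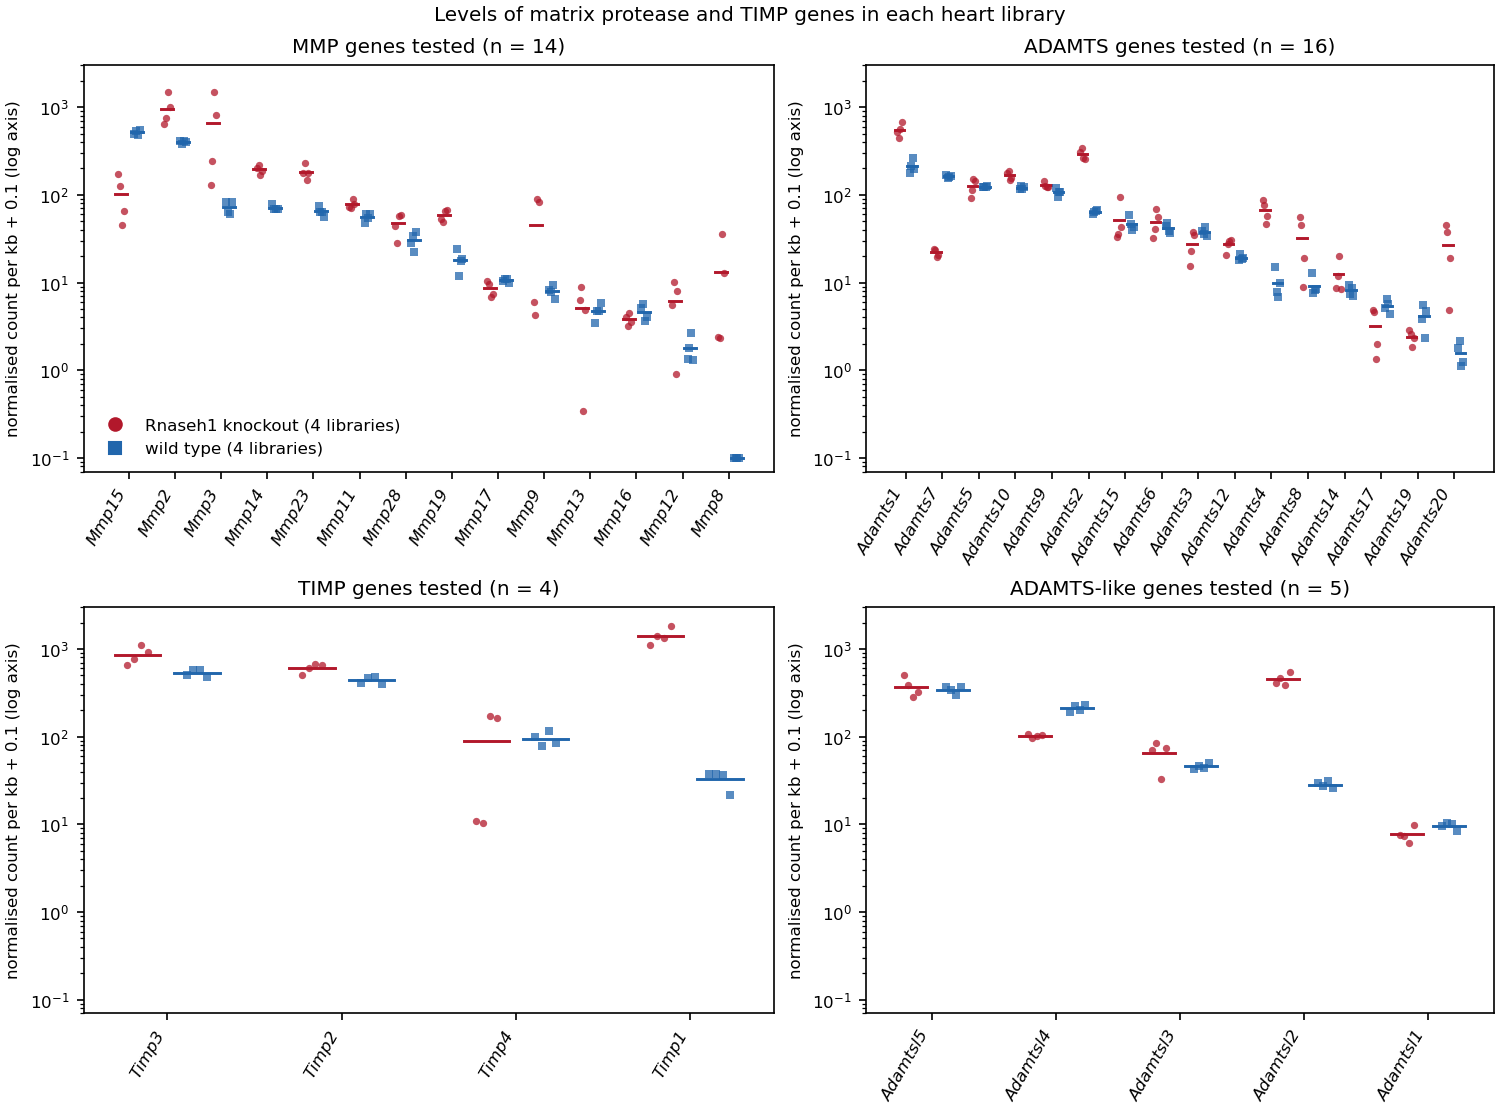
Level of each of the 39 tested genes in each library, as normalised count per kb of exon plus 0.1 on a log axis, by class and ordered by the wild type mean. Red circles are the 4 *Rnaseh1* knockout libraries, blue squares the 4 wild type libraries, and bars the group means. *Timp1* and *Adamtsl2* stand far higher in all knockout libraries, *Mmp15* and *Adamts7* far lower, and *Timp4* and *Mmp9* have knockout libraries on both sides of wild type.

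The gelatinase MMP-2 and the membrane protease that activates it both rose. *Mmp2* had 2137, 2500.2, 4964 and 3344 normalised counts in knockout hearts, against 1388, 1269, 1384 and 1362 in wild type hearts. All knockout libraries were above all wild type libraries, with replicate 3 the highest, and *Mmp2* was the most abundant MMP per kilobase in the knockout (log2 change 1.184 ± 0.21 SE, adjusted p = 0.000669). *Mmp14*, which encodes a membrane-anchored collagenase and the main activator of the MMP-2 proenzyme, had 1219, 1313, 991 and 1112 in knockout hearts, against 469, 408, 406 and 407 in wild type hearts. The 4 values of each group lay close together and far from the other group (log2 change 1.45 ± 0.095 SE, adjusted p = 4.71e-07). *Mmp15*, a second membrane-anchored MMP, went the other way and was the only MMP called lower. It had 931, 682, 246 and 356 in knockout hearts, against 2662, 2864, 2623 and 2949 in wild type hearts. The groups did not overlap, and the knockout mean was 19.96% of the wild type mean (log2 change -2.51 ± 0.34 SE, adjusted p = 9.54e-05). *Mmp15* (ENSMUSG00000031790, chromosome 8 from 95352268 to 95375080 on the plus strand) was the most abundant MMP per kilobase in wild type hearts. It made up 5.58% ± 4.60 of the summed MMP level in knockout hearts and 40.8% ± 1.79 in wild type hearts, while *Mmp2* made up 40.7% ± 1.61 and 31.9% ± 1.52 (SD, n = 4 each). The cardiomyocyte markers were lower in the knockout as well, and their part in the fall of *Mmp15* was not tested. The membrane-anchored *Mmp16* (log2 change -0.27 ± 0.21 SE, adjusted p = 0.303) and the lipid-anchored *Mmp17* (log2 change -0.31 ± 0.17 SE, adjusted p = 0.149) were not called. *Mmp23*, also held in the membrane, rose and is given below. Per kilobase, the first 4 MMP genes in knockout hearts were *Mmp2* (960.0 normalised counts per kb), *Mmp3* (665), *Mmp14* (194) and *Mmp23* (183), and in wild type hearts *Mmp15* (514), *Mmp2* (401), *Mmp3* (72.5) and *Mmp14* (70.9). Across libraries the ranges of neighbours in the knockout order overlapped, although *Mmp2* was above *Mmp3* within each of the 4. In wild type the ranges of *Mmp15*, *Mmp2* and *Mmp3* were apart and those of *Mmp3* and *Mmp14* overlapped.

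The stromelysin gene *Mmp3*, whose product cuts proteoglycans and activates other proenzymes, had 235, 438, 2651 and 1465 normalised counts in knockout hearts, against 149, 113, 109.7 and 150.2 in wild type hearts. Each knockout library was above each wild type library, but replicates 3 and 4 were several times above replicates 1 and 2 (log2 change 2.61 ± 0.62 SE, adjusted p = 0.00414). Without knockout replicate 1 the log2 change was 3.20, and without knockout replicate 3 it was 2.03, both called. *Mmp3* made up 23.6% ± 14.8 of the summed MMP level in knockout hearts and 5.74% ± 0.81 in wild type hearts. *Mmp11*, a furin-activated member also classed as a stromelysin, rose less (log2 change 0.47 ± 0.12 SE, adjusted p = 0.00655). *Mmp19* had 186, 173, 231 and 238 in knockout hearts, against 85.7, 41.9, 61.8 and 65.6 in wild type hearts, without overlap (log2 change 1.71 ± 0.21 SE, adjusted p = 4.60e-05). *Mmp23*, an unusual member held in the membrane by its N-terminus, had 415, 539.8, 346 and 412 in knockout hearts, against 176, 149, 149.9 and 131 in wild type hearts. These groups too were clearly apart (log2 change 1.48 ± 0.14 SE, adjusted p = 7.67e-06). *Mmp28*, the last of the tested secreted members outside the cluster and the gelatinases, was not called (log2 change 0.60 ± 0.25 SE, adjusted p = 0.0557). Both edgeR (0.63, adjusted p = 0.0464) and DESeq2 on the recovered reads called it higher, with adjusted p 9.79e-06 to 0.152 over all alternatives. *Mmp28* was called higher too under equal totals of nuclear genes (0.83, adjusted p = 0.0125) and under equal library totals (2.04, adjusted p = 9.79e-06). It was also called without knockout replicate 2 (0.83, adjusted p = 0.00515) or wild type replicate 4 (0.71, adjusted p = 0.0474).

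Both MMPs best known from neutrophil granules, the collagenase *Mmp8* and the gelatinase *Mmp9*, were highest in knockout replicates 3 and 4. *Mmp8* had 5.57, 5.38, 85.4 and 30.9 normalised counts in knockout hearts, against no read in any of the 4 wild type libraries. The 196 knockout reads put the knockout mean at least 28.2-fold higher, with a floor of 3 reads over the wild type group. Fitted log2 changes are no bound here and ran from 4.20 by limma-trend (3.46 without knockout replicate 3) to 6.85 by DESeq2 and 8.13 by edgeR. *Mmp9* had 20.9, 14.8, 316 and 293 in knockout hearts, against 28.6, 27.1, 32.4 and 22.4 in wild type hearts. Knockout replicates 1 and 2 were below all wild type libraries and the others far above them, so the groups interleaved and there was no call (log2 change 1.41 ± 0.91 SE, adjusted p = 0.205). Without knockout replicate 2 the change was called (2.16, adjusted p = 0.0391), and edgeR (2.53, adjusted p = 0.0389) and DESeq2 (2.53, adjusted p = 0.0194) on the recovered reads called it with all libraries (adjusted p 0.0121 to 0.493 over all alternatives). The 8 granulocyte markers summed to 297, 335, 1271 and 1562 normalised counts in knockout replicates 1 to 4 and to 48.1 to 66.1 in wild type. Of these markers, 5 were tested and all 5 rose, beside 30.7% of all genes. They were *S100a8*, *S100a9*, *Csf3r*, *Cxcr2* and *Retnlg*, with log2 changes from 2.87 to 4.49. Only through the knockout libraries had 4 of them passed the minimum. The markers not tested, *Ly6g*, *Camp* and *Ngp*, were near 0 in both groups, with means of at most 1.63 in knockout hearts and 0.432 in wild type hearts. The part of granulocytes in the *Mmp8* and *Mmp9* values was not tested.

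*Mmp12*, the macrophage elastase, had 39.7, 72.0, 5.86 and 57.4 normalised counts in knockout hearts, against 9.02, 12.3, 18.5 and 8.63 in wild type hearts. Knockout replicate 3 was below every wild type library and the other knockout libraries were above all of them. The change was not called (log2 change 1.39 ± 0.65 SE, adjusted p = 0.0895), but was called without knockout replicate 3 (2.15, adjusted p = 0.000159) and by edgeR (1.83, adjusted p = 0.0322) and DESeq2 (1.84, adjusted p = 0.00742) with it (adjusted p 0.000159 to 0.222 over all alternatives). Of 8 macrophage markers, 7 rose, beside 30.7% of all genes. The sums of these markers were 15660.0 to 18934 in knockout hearts and 5610.1 to 6321 in wild type hearts, and knockout replicate 3 had the lowest knockout sum. Their part in the *Mmp12* values was not tested. The collagenase *Mmp13* had 16.7, 23.6, 0.652 and 12.6 in knockout hearts, against 9.02, 12.3, 12.4 and 15.5 in wild type hearts, again with knockout replicate 3 lowest, and was not called (log2 change -0.40 ± 0.73 SE, adjusted p = 0.664). Its direction turned to 0.46 without that library. Of the 8 MMP genes under the minimum, the stromelysin *Mmp10*, the collagenase *Mmp1b*, the matrilysin *Mmp7* and the enamel protease *Mmp20* had no read in any library, which allows up to 3 reads over a group. The other 4 averaged 10.96 and 1.92 normalised counts in knockout and wild type hearts for *Mmp25*, 10.5 and 3.75 for *Mmp27*, 3.93 and 0.386 for *Mmp24*, and 0.668 and 1.19 for *Mmp21*. Of the 9 genes in the chromosome 9 row, 5 were therefore below the minimum, *Mmp3* rose, *Mmp8* had reads only in the knockout, and 2 were not called.

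**Figure D3:**
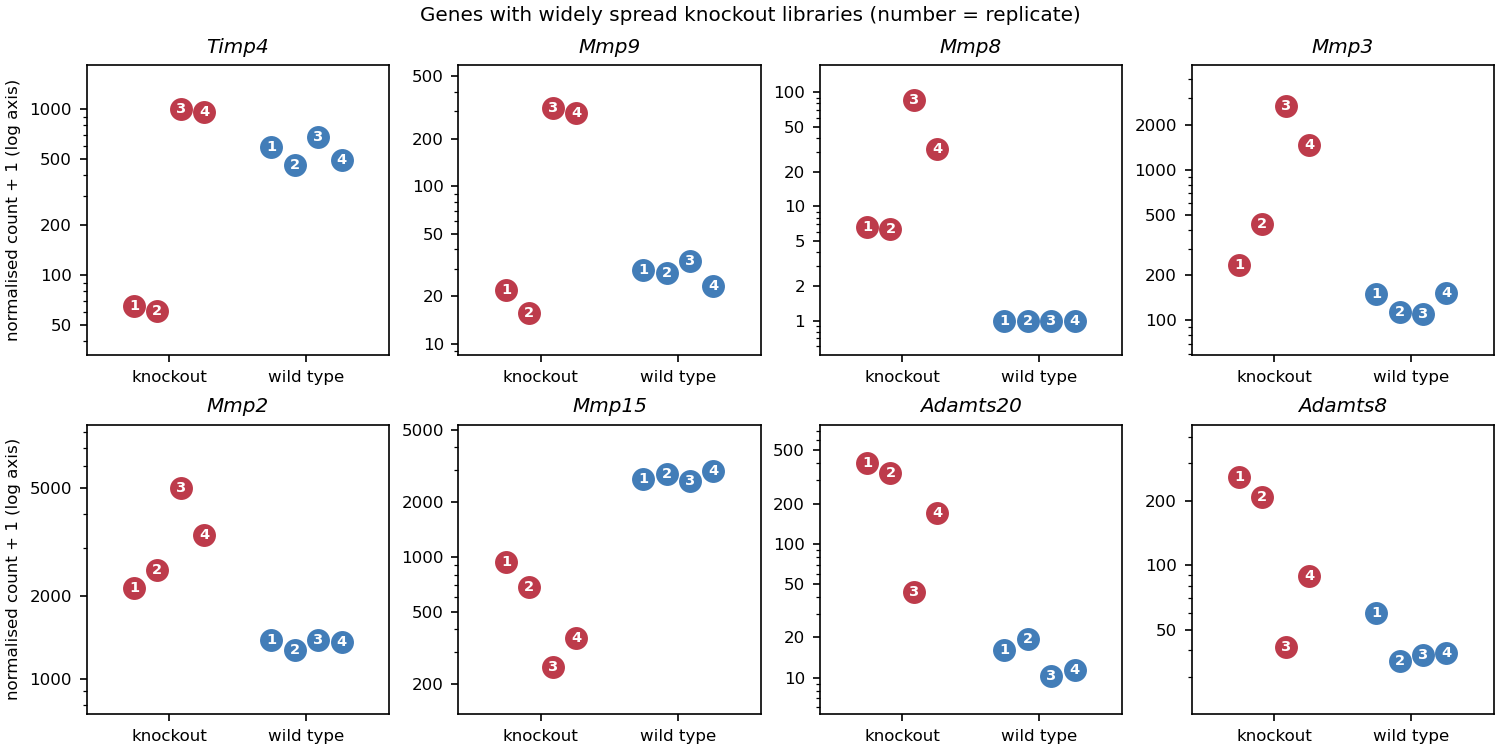
Normalised count plus 1 on a log axis for 8 genes whose knockout libraries spread widely, with the replicate number in each point (knockout left in red, wild type right in blue). *Timp4* and *Mmp9* have knockout replicates 1 and 2 below and 3 and 4 above all wild type libraries, *Mmp8*, *Mmp3*, *Mmp2*, *Mmp15* and *Adamts20* do not overlap between genotypes, and *Adamts8* overlaps through knockout replicate 3.

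The knockout libraries of these genes varied more than those of wild type. The SD of the log2 level was larger in the knockout for 30 of the 39 tested members, and was larger there for 61.7% of all genes tested. Its median over the members was 0.33 in knockout hearts and 0.16 in wild type hearts, beside 0.20 and 0.14 over all genes. The highest knockout library was more than 5 times the lowest for 8 members, and no wild type group spread as widely.

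Ratios of an enzyme to its inhibitor within a library do not depend on how libraries are scaled, and 4 were compared by exact two-sided permutation of the 8 libraries over 70 assignments. The smallest p this allows is 0.0286, and all 4 ratios reached it. Benjamini-Hochberg adjustment over the 4 leaves equal p-values as they are. The ratios with *Timp1* were bound to reach it by the rise of *Timp1* itself (42.8-fold by means), so they add no separate support. Without wild type replicate 2 or 3, *Mmp2* over *Timp2* missed the threshold (differences of 0.66 and 0.68, exact permutation p = 0.0571 in both), and the other ratios kept their call without any 1 library. The log2 ratio of *Mmp2* over *Timp2* was 0.11, 0.081, 0.94 and 0.39 in knockout hearts, against -0.21, -0.50, -0.44 and -0.20 in wild type hearts, a difference of 0.72. That of *Mmp14* over *Timp2* was -0.70, -0.85, -1.39 and -1.20 in knockout hearts, against -1.78, -2.14, -2.21 and -1.94 in wild type hearts, a difference of 0.98. Both comparisons had every knockout library above every wild type library. Among the inhibitors, *Timp1* over *Timp3* differed by 4.77, with -2.44, -2.31, -2.91 and -2.20 in knockout hearts, against -6.95, -7.13, -7.18 and -7.69 in wild type hearts. *Timp1* over *Timp4* differed by 6.59, with 3.93, 4.38, 0.25 and 0.75 in knockout hearts, against -4.16, -3.80, -4.39 and -4.70 in wild type hearts. Although *Timp4* itself was not called, *Timp1* was above it in every knockout library and under it in every wild type library, also per kilobase.

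**Figure D4:**
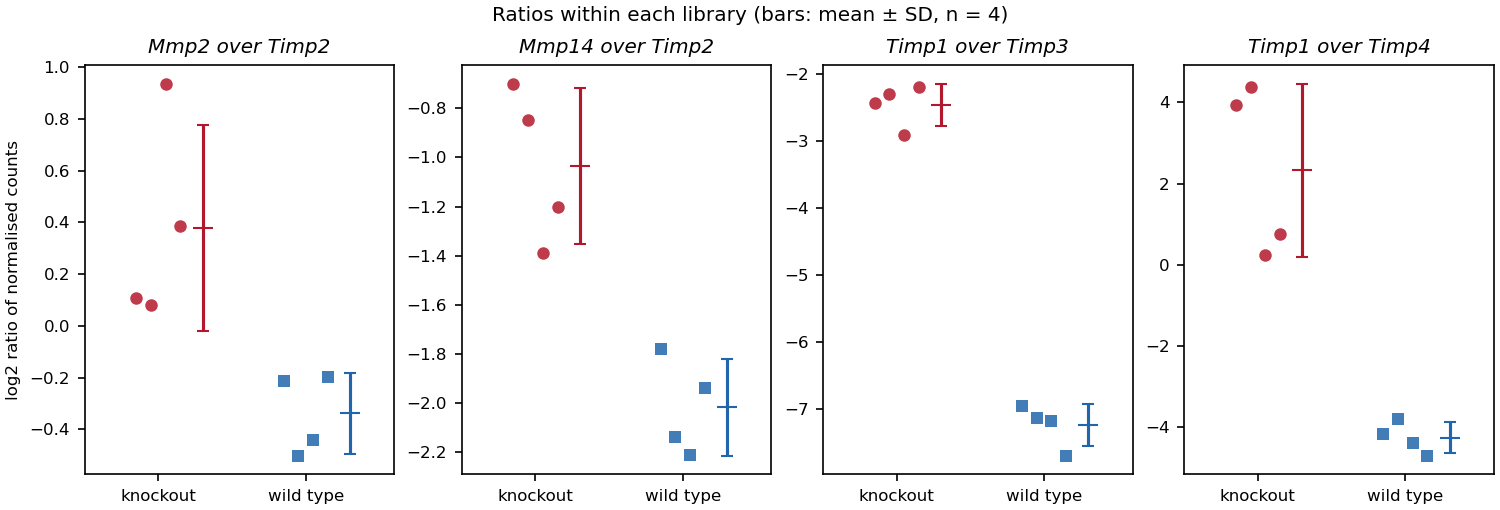
Log2 ratio of normalised counts of 2 genes within each library, knockout left in red and wild type right in blue, with the mean and SD of 4 libraries beside the points. In all 4 panels every knockout library lies above every wild type library, and the differences of the means are 0.72, 0.98, 4.77 and 6.59 from left to right.

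Among the ADAMTS enzymes, proteases of hyaluronan-binding proteoglycans such as versican and aggrecan were the largest set. *Adamts1*, the most abundant ADAMTS gene per kilobase in both genotypes, had 2789, 2382, 2996 and 3551 normalised counts in knockout hearts, against 938, 1123, 1394 and 1051 in wild type hearts. Its groups were well separated (log2 change 1.38 ± 0.14 SE, adjusted p = 1.03e-05). *Adamts4*, an aggrecanase, had 414, 370.2, 225 and 272 in knockout hearts, against 72.2, 37.0, 32.4 and 46.6 in wild type hearts. Every knockout library was above every wild type library (log2 change 2.77 ± 0.26 SE, adjusted p = 7.23e-06), while *Adamts5*, the other main aggrecanase and the neighbour of *Adamts1* on chromosome 16, was not called (log2 change -0.0096 ± 0.13 SE, adjusted p = 0.956). *Adamts20*, which cuts versican and is known in mice from a belt of white fur when mutated, had 404, 335, 42.4 and 170.2 in knockout hearts, against 15.03, 18.5, 9.27 and 10.4 in wild type hearts. Although knockout replicate 3 was the lowest of its group, it too was above wild type (log2 change 3.69 ± 0.60 SE, adjusted p = 0.00036), and without that library the log2 change was 4.37. Its close relative *Adamts9* rose little (log2 change 0.27 ± 0.078 SE, adjusted p = 0.0113). *Adamts8* had 258, 207, 40.4 and 88.3 in knockout hearts, against 58.6, 34.5, 37.1 and 38.0 in wild type hearts. The groups overlapped through knockout replicate 3 and wild type replicate 1, and the call (log2 change 1.496 ± 0.50 SE, adjusted p = 0.0237) was lost without any 1 of knockout replicates 1 and 2 and wild type replicates 2, 3 and 4, with adjusted p between 0.0562 and 0.0636. Its neighbour on chromosome 9, *Adamts15*, was not called (log2 change 0.011 ± 0.28 SE, adjusted p = 0.975). The order per kilobase began in knockout hearts with *Adamts1* (553 normalised counts per kb), *Adamts2* (293), *Adamts10* (167), *Adamts9* (129.6) and *Adamts5* (125), and in wild type hearts with *Adamts1* (212), *Adamts7* (162), *Adamts5* (123), *Adamts10* (119.7) and *Adamts9* (107). The ranges of neighbours in these orders were apart across libraries, except for *Adamts9* and *Adamts5* in the knockout and for *Adamts5*, *Adamts10* and *Adamts9* in wild type.

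The procollagen N-proteinases, which trim fibrillar procollagens so that fibrils can form, are *Adamts2*, *Adamts3* and *Adamts14*. *Adamts2* had 2905, 3200.1, 2484 and 2367 normalised counts in knockout hearts, against 556, 599, 609 and 628 in wild type hearts, and ranked second of the ADAMTS genes per kilobase in the knockout. Its groups were tight and wide apart (log2 change 2.18 ± 0.096 SE, adjusted p = 2.73e-08). Neither *Adamts3* (log2 change -0.53 ± 0.24 SE, adjusted p = 0.0841) nor *Adamts14* (log2 change 0.51 ± 0.27 SE, adjusted p = 0.132) was called, and both were far less abundant, with 27.4 and 12.3 normalised counts per kb in knockout hearts beside 293 for *Adamts2*. *Adamts3* was called lower without knockout replicate 3 (-0.70, adjusted p = 0.0153) or 4 (-0.67, adjusted p = 0.0495), with adjusted p 0.00424 to 0.309 over all alternatives. *Adamts7* and *Adamts12* both encode proteases known to cut cartilage oligomeric matrix protein, and they moved in opposite directions. *Adamts7* (ENSMUSG00000032363, chromosome 9 from 90163069 to 90208071 on the plus strand) had 152, 149, 123 and 127 in knockout hearts, against 1064, 976, 999.6 and 1026 in wild type hearts. The knockout mean was 13.6% of that in wild type, the largest fall of the 39 members by limma-trend and by edgeR (log2 change -2.88 ± 0.091 SE, adjusted p = 3.51e-09). *Adamts12* rose slightly, to 296 ± 48.4 in knockout hearts, against 209 ± 14.99 in wild type hearts (SD, n = 4 each, log2 change 0.49 ± 0.13 SE, adjusted p = 0.00791).

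*Adamts10*, linked with fibrillin microfibrils and with short stature in human Weill-Marchesani syndrome, rose modestly (log2 change 0.48 ± 0.081 SE, adjusted p = 0.000483). The related *Adamts6* (log2 change 0.19 ± 0.21 SE, adjusted p = 0.467) and *Adamts17*, which is also linked with fibrillin (log2 change -0.93 ± 0.40 SE, adjusted p = 0.0651), were not called, although *Adamts17* was called lower without knockout replicate 1 (-1.20, adjusted p = 0.0235) or 2 (-1.17, adjusted p = 0.0306), with adjusted p 0.0235 to 0.302 over all alternatives. *Adamts19*, known from human heart valve disease, averaged 32.2 ± 6.35 normalised counts in knockout hearts and 56.4 ± 19.6 in wild type hearts (SD, n = 4 each). That call was narrow (log2 change -0.73 ± 0.28 SE, adjusted p = 0.046), and the groups overlapped. The call was lost without any 1 of 6 of the 8 libraries (knockout replicates 2, 3 and 4 and wild type replicates 1, 2 and 4). It was also lost with no minimum (adjusted p = 0.0754) and under equal totals of nuclear genes (adjusted p = 0.143). Under equal library totals *Adamts19* was instead called higher (0.68, adjusted p = 0.0446). The 3 ADAMTS genes under the minimum were *Adamts13*, the von Willebrand factor protease made mainly in liver, with means of 1.14 in knockout hearts and 0.308 in wild type hearts, *Adamts16* with 2.66 and 0.818, and *Adamts18* with 8.33 and 1.17.

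The ADAMTS-like genes held a very large rise. *Adamtsl2*, whose product binds fibrillin and the latent TGF-beta binding protein LTBP1 and is mutated in human geleophysic dysplasia, had 3281, 3714, 3087 and 4377 normalised counts in knockout hearts, against 235, 217, 247 and 205 in wild type hearts. The means were 16.0-fold apart and no libraries came near to overlap (log2 change 3.98 ± 0.11 SE, adjusted p = 1.46e-09). The gene (ENSMUSG00000036040, chromosome 2 from 27079379 to 27108981 on the plus strand) lies within 500 kb of *Adamts13*, which had almost no reads. It made up 45.4% ± 6.15 of the summed ADAMTS-like level per kilobase in knockout hearts and 4.46% ± 0.66 in wild type hearts (SD, n = 4 each). *Adamtsl4*, which binds fibrillin and is mutated in human displacement of the lens, had 453, 407, 430.1 and 434 in knockout hearts, against 801, 950.0, 837 and 957 in wild type hearts. All knockout libraries were below all wild type libraries (log2 change -1.03 ± 0.079 SE, adjusted p = 1.46e-06). Under equal library totals, where the median gene moved by 1.43, *Adamtsl4* was instead called higher (0.41, adjusted p = 0.000926). *Adamtsl5*, also a fibrillin-binding protein and the most abundant of the class per kilobase in wild type, had 2376, 1825, 1324 and 1517 in knockout hearts, against 1747, 1604, 1404 and 1747 in wild type hearts. These ranges overlapped and there was no call (log2 change 0.085 ± 0.16 SE, adjusted p = 0.666), nor was there for *Adamtsl3* (log2 change 0.44 ± 0.25 SE, adjusted p = 0.152), which was called higher without knockout replicate 3 (0.74, adjusted p = 2.60e-05, with adjusted p 2.60e-05 to 0.349 over all alternatives), or for *Adamtsl1* (log2 change -0.34 ± 0.16 SE, adjusted p = 0.0895), which overlaps *Sh3gl2* on the same strand. *Adamtsl1* was called lower without knockout replicate 4 (-0.46, adjusted p = 0.0252, with adjusted p 8.69e-05 to 0.583 over all alternatives).

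Genes that activate, clear or hold these proteases were looked at in 3 lists. Of 22 tested genes for activation, clearance and control at the cell surface, 13 rose and 1 fell. Beside this and the counts of the other lists stand 30.7% of all genes tested called higher and 28.4% called lower. The rises included *Thbs1*, a matrix protein that binds MMPs (log2 change 2.21 ± 0.21 SE), and *Cd44*, a hyaluronan receptor that docks MMPs on cells (1.87 ± 0.078), and the fall was that of the proprotein convertase *Pcsk6* (-0.94 ± 0.15, adjusted p = 0.000348). The membrane inhibitor *Reck* rose by 0.35 ± 0.12 (adjusted p = 0.031) and the clearance receptor *Lrp1* by 0.86 ± 0.076 (adjusted p = 4.13e-06) on the log2 scale, whereas *Furin* was not called (adjusted p = 0.296). Of 25 tested genes for other matrix and shedding proteases, 16 rose and 3 fell. They were led by the tolloid protease *Tll2*, which fell to a mean of 0.337 normalised counts in knockout hearts, against 25.5 in wild type hearts and passed the minimum only through wild type, and by the shedding protease *Adam8* (3.34 ± 0.36) and its relative *Adam12* (2.95 ± 0.27), which rose. Of 16 tested substrates and ligands of ADAMTS and ADAMTS-like proteins, 11 rose and 1 fell. The crosslinking enzyme *Lox* rose most (4.12 ± 0.27, adjusted p = 4.13e-07), followed by *Fn1* for fibronectin (2.68 ± 0.11) and *Comp*, the substrate of *Adamts7* and *Adamts12* proteins (2.67 ± 0.26). The fall was that of *Ltbp1*, the binding partner of ADAMTSL2 (-1.45 ± 0.072, adjusted p = 6.90e-08), while *Vcan* for versican rose by 1.36 ± 0.21 (adjusted p = 0.000289). The median log2 changes of the 3 lists were 0.60, 0.44 and 1.61, beside 0.017 over all genes.

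Markers of the cell types that make these proteins moved with genotype too. Of all genes tested, 30.7% were called higher and 28.4% lower, which stands beside the counts that follow. Of 10 cardiomyocyte markers 9 fell and 1, *Nppa*, rose, and their sums were 1471811 to 1806595 in knockout hearts and 3563231 to 3697469 in wild type hearts. Of 10 fibroblast markers 6 rose and 1, *Gsn*, fell, while *Pdgfra*, *Dcn* and *Dpt* were not called. The sums of the 10 were 94623 to 113594 normalised counts in knockout hearts and 56110.3 to 59342 in wild type hearts. The collagen gene *Col3a1* alone averaged 37908 in knockout hearts and 6830 in wild type hearts, so the sums largely follow collagen transcripts. Among the 8 markers of activated fibroblasts 7 rose and none fell, *Cthrc1* having passed the minimum only through the knockout, and their sums were 26779.6 to 36156 in knockout hearts and 4456 to 6718 in wild type hearts. Endothelial markers were mixed, with 1 of 8 higher and 3 lower and overlapping sums of 26824 to 27964 in knockout hearts and 25697 to 28543 in wild type hearts, and mural markers had 0 of 8 higher and 4 lower, with sums of 19791 to 25845 in knockout hearts and 36214 to 38906 in wild type hearts. The low lists had few tested genes. Of T and NK cell markers 1 was tested and rose (*Cd4*), and none of 2 B cell, 3 mesothelial and 2 cartilage and bone markers tested was called. *Cd3e*, *Bglap* and *Ibsp* averaged under 2 normalised counts in both groups. These shifts stand beside every rise and fall given here, and their part in them was not tested.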

How the data were processed

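Total heart RNA of 4 knockout and 4 wild type mice had been sequenced as paired-end TruSeq libraries. Per the study's methods, HISAT2 2.10 was run against mm10, primary alignments in proper pairs were retained, and featureCounts 1.6.3 assigned stranded pairs to genes. The unit of the deposited table is a signal, since the authors divided each library's gene counts by its DESeq2 size factor (DESeq2 1.18.1, R 3.5.1). A deposited sheet of the authors' own DESeq2 comparison holds fold changes and p-values and was not used. All 100% of the values above 0 were whole read pairs within 0.01 after division by the value of 1 pair, so reads were recovered for edgeR (4.0.16, 10023 genes called) and DESeq2 (1.42.0, 10046 called) as alternatives. A trailing block that repeated 13 mtDNA rows was left out.

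The main test was limma-trend (limma 3.58.1, R 4.3.3) on log2(normalised count + 1), which understates changes of genes with few reads, fitting genotype alone on 17046 genes whose mean was at least 10, two-sided, with Benjamini-Hochberg adjustment and a threshold of 0.05 (10080 genes called). It was also run on simulated data, with equal spread in both groups and far fewer changed genes than here. That check does not cover the wider spread of the knockout libraries. The value of a log2 change is knockout minus wild type with its standard error. The libraries come from separate animals, and p-values reflect how far those animals differ within a group. Floors of 3 reads cover counting error only. No libraries agreed within sampling noise. Levels per kb used merged exons of GENCODE M21 (GRCm38), in which 49 of the 50 genes had the deposited start and end.

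The members and the gene lists were chosen with earlier results of these data known. Per-library values are given for members called with a log2 change of at least 1 in size, the TIMPs, the most abundant member of each class, *Mmp2*, *Mmp9* and *Mmp14*, with *Mmp12*, *Mmp13* and *Rnaseh1* added after their values were seen. From each list, up to 3 genes with the largest change among those called are named (the result of 1 gene is not reported here), and *Reck*, *Lrp1*, *Furin*, *Vcan*, *Ltbp1*, *Pcsk6* and the single markers named were also chosen after their values were seen. Lists covered activation, clearance and control of metalloproteases, other proteases, substrates and ligands, and markers of cardiomyocytes, fibroblasts, activated fibroblasts, endothelium, granulocytes, macrophages, mural cells, mesothelium, B cells, T and NK cells, and cartilage and bone. Alternatives were a pseudocount of 0.5, no minimum, a minimum of 50, 3 other scalings, both count tests, the replicate number as a block, and leaving out each library. The 3 scalings centred on the median gene were added after seeing the data.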

Additional observations from a re-analysis of the deposited data

Results flagged for a closer look

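In 4 of 85 groups of 4 libraries examined over the tested members and ratios, 1 library stood far from the other 3 (Dixon's test at 95%). Chance alone gives about 1 in 20 such groups, or 4.25 here. *Adamts15* had 968 normalised counts in knockout replicate 3, above the other knockout libraries. *Adamts8* had 58.6 in wild type replicate 1 and *Mmp14* had 469 there, both above the other wild type libraries. *Timp1* had 19.0 in wild type replicate 4, under the other wild type libraries.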

How the results depend on the processing

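Of the 39 tested members, 20 kept their call and direction under all 20 alternatives in which they could be fitted, 18 of them higher (with *Mmp8*, which passed only through the knockout) and 2 lower (*Mmp15* and *Adamts7*). With a minimum of 50, 33 members remained in the fit. Without 1 library, 18 to 21 members were higher, 3 to 5 lower, and 9246 to 10504 of all genes were called. Under equal library totals 15519 genes were called against 10080, and 34 members were higher and 2 lower. Directions turned there for *Adamts17* (0.46), *Adamts19* (0.68), *Adamts3* (0.90), *Adamts5* (1.43), *Adamtsl1* (1.09), *Adamtsl4* (0.41), *Mmp13* (0.85), *Mmp16* (1.14), *Mmp17* (1.11) and *Timp4* (0.29). Under equal nuclear totals *Adamts5* turned to 0.22, and under centred library totals to 0.0063. On recovered reads *Adamts5* and *Mmp13* turned to 0.013 and 0.12 by edgeR and to 0.0056 and 0.11 by DESeq2. Without 1 library, *Adamts5* ranged from -0.11 to 0.12, *Adamtsl5* from -0.070 to 0.21, *Adamts15* from -0.32 to 0.18 and *Mmp13* from -0.83 to 0.46. The causes were not tested.

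The replicate numbers did not pair the libraries, since deviations of same-numbered libraries had correlations of 0.04, -0.07, 0.0084 and -0.04. With the replicate number as a block 9721 genes were called, with 19 members higher and 4 lower, and all 23 member calls were kept. Paired by number, the ratios differed by 0.72, 0.98, 4.77 and 6.59, and with 4 pairs an exact permutation test cannot reach the threshold of 0.05. Without 1 library, *Mmp2* over *Timp2* differed by 0.53 to 0.82 and missed the threshold without wild type replicate 2 (0.66) or 3 (0.68), with an exact permutation p of 0.0571. The other ratios kept their call without any 1 library. Wild type libraries held fewer nuclear read pairs, so low members such as *Adamts20* rest there on few reads.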
